A study of Rattus norvegicus with 54 samples.

Results

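The nuclear genes of complex III, complex IV, and ATP synthase, together with cytochrome c and 9 genes named after them, were followed in 54 rat hearts. The rule was the gene symbol: a row of the fpkm table counted if its symbol began with Uqcr, Cox4 to Cox8, Cox10 to Cox19, or Atp5, or was Cyc1 or Cycs. It found 49 rows, of which Atp5f1 occurred in 2 identical copies, and so 48 of the 9996 genes in the table. They comprised 9 genes of complex III, the cytochrome c gene Cycs, 14 subunit genes of complex IV, Cox7a2l, 6 genes needed to assemble complex IV (Cox11 and Cox15 to Cox19), 15 genes of ATP synthase, and Atp5s and Atp5sl, which RefSeq now lists as Dmac2l and Dmac2 and which are not subunits. RefSeq uses newer symbols for all 15 ATP synthase genes (Atp5b is Atp5f1b, and Atp5g1 is Atp5mc1). The symbols of the table are kept here. Cox7a1, Cox10, and Cox14 also match the rule but had no row under these symbols in the fpkm table, so they were not analysed here.

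All rats were male Wistar rats, about 7 to 8 weeks old when put on the schedule and housed singly under 12 h of light and 12 h of darkness. The 18 control (C) rats stayed in their cages with food at all times. The 18 working (W) rats spent the hours from ZT2 to ZT10 in a slowly turning drum on weekdays for 5 weeks and had food at all times, where ZT0 is lights on. The 18 WRF rats worked in the same way without access to food during the work hours. Hearts, with atria and ventricles crushed together, were taken on a day without work from 3 rats per group every 4 h from ZT1 to ZT21, so the values describe hearts on a rest day after the schedule. In such whole-tissue RNA, fewer cells of a type and less RNA per cell cannot be told apart.

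The respiratory chain passes electrons from NADH and succinate to oxygen and stores the energy as a proton gradient across the inner mitochondrial membrane. Complex III takes electrons from ubiquinol and hands them to cytochrome c, a small mobile carrier. Complex IV, cytochrome c oxidase, takes them from cytochrome c to oxygen. ATP synthase lets the protons flow back through a ring of c subunits, whose rotation drives ATP formation in its F1 head. The heart, which contracts without pause, is among the tissues richest in these proteins. Several complex IV subunits exist in a form found in heart and skeletal muscle and a form found in most tissues. The mitochondrially encoded core subunits do not match the rule and are not described.

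Libraries WRF51 (ZT9) and WRF62 (ZT5) stood apart from all others, so the levels, the comparisons of WRF rats, the times, and the rhythms are given with and without them. The summed level of 9 cardiomyocyte markers, all of them measured, was 25489 to 63079 fpkm in C rats and 36120 to 59962 fpkm in the other 16 WRF rats, but 869 fpkm in WRF51 and 4722 fpkm in WRF62. In WRF51, Ager, the only measured gene of 7 lung epithelium markers, was at 1419 fpkm against 1.48 to 4.79 fpkm in C rats. The sum of 6 measured T cell markers of 7 was 118 fpkm in WRF51 and 644 fpkm in WRF62, against 6.31 to 24.5 fpkm in C rats. The atrial marker Myl7, an atrial myosin light chain, ranged from 2.29 to 23938 fpkm over all rats, and was at 100 fpkm or more in 6 C, 7 W, and 9 WRF rats. The sum of all fpkm values of a rat had a median of 478799 (C), 505910 (W), and 572371 (WRF). The number of reads behind a value cannot be read from fpkm. Times are those of the sample titles. The other labels of 12 WRF rats give another time, among them ZT5 for WRF51 and ZT1 for WRF62, and every value by time in WRF rats rests on this choice.

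The members spanned a wide range of levels. Fpkm is a level per length of transcript, so genes were compared by it. Whether the level of short transcripts is biased was not checked. Over the 54 rats, 21 of the 48 had a mean above 1000 fpkm, while 9 had a mean under 25 fpkm. Together they made up 6.07% to 13.7% of the summed fpkm in C rats, with a median of 11.2%, against medians of 10.7% for W and 11.8% for WRF rats. The lowest of the WRF values was 1.70%.

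Complex III genes had the lowest levels of the 3 complexes, with a median of 599 fpkm over its 9 genes. The highest were 2 small subunits, Uqcr10 with a mean of 1186 fpkm and Uqcr11 with 943 fpkm. Uqcrq, which encodes the ubiquinone-binding subunit, was lowest at 182 fpkm. Cycs, whose product connects complexes III and IV, had a mean of 713 fpkm.

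Complex IV spanned the widest range. The muscle forms Cox8b and Cox6a2 led with means of 6705 and 3543 fpkm, and the median of the 14 genes was 1940 fpkm. Cox6b2, known as the testis form of subunit 6b, was lowest at 2.37 fpkm. The assembly genes were far lower, from 2.06 fpkm for Cox11 to 333 fpkm for Cox17, both of which encode proteins that deliver copper to the complex.

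ATP synthase lay between 337 fpkm for Atp5f1, the peripheral stalk subunit b, and 3126 fpkm for Atp5i, subunit e of the membrane part. Atp5b, the catalytic beta subunit of the F1 head, followed with 2884 fpkm. The median over the 15 genes was 1423 fpkm.

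The mean of the log2(fpkm + 1) values of each complex gave 1 level per rat. For complex III it was 8.36, 9.05, and 9.53 (lowest, median, and highest) in C rats, 8.42, 9.16, and 9.45 in W rats, and 6.80, 9.27, and 9.59 in WRF rats. For complex IV the same 3 values were 8.96, 9.46, and 10.01 in C, 9.16, 9.58, and 9.93 in W, and 7.73, 9.78, and 10.12 in WRF rats. For ATP synthase they were 9.61, 10.16, and 10.76 in C, 9.71, 10.30, and 10.64 in W, and 8.08, 10.41, and 10.78 in WRF rats. The groups overlapped in all 3 complexes, and the 2 lowest WRF values of each were WRF51 and WRF62. Without them the lowest WRF values were 9.05, 9.54, and 10.25, still within the range of the C rats.

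**Figure D1:**
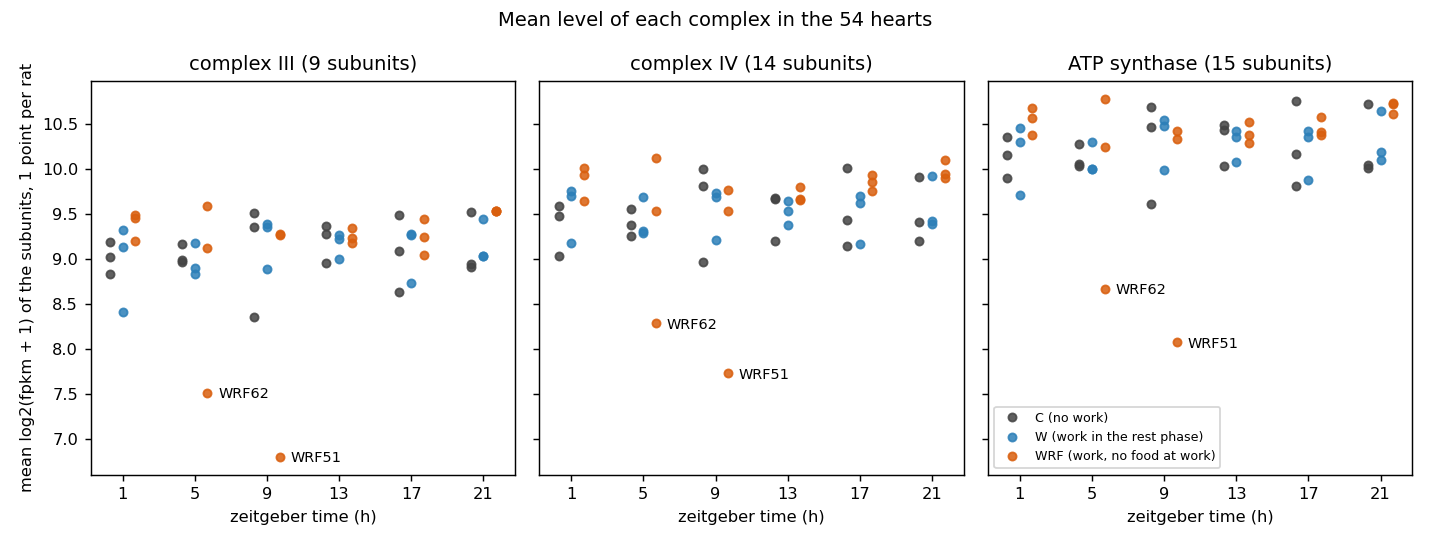
Mean log2(fpkm + 1) over the genes of complex III, complex IV, and ATP synthase (vertical axis) against zeitgeber time in h (horizontal axis), where a point stands for 1 rat, its color for the group, and WRF51 and WRF62 are named. The groups overlap, and the 2 named libraries lie below every other rat in each complex.

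In the comparison of WRF with C rats, which asks what work combined with daytime food loss leaves behind, 4 of the 48 genes were higher in WRF rats and 0 were lower. Of all rows, 8.13% were called higher and 8.85% in either direction, so the share of members called was close to the background. A call needed a Benjamini-Hochberg adjusted p (q) of at most 0.05 in a Kruskal-Wallis test over the 3 groups and an exact 2-sided Mann-Whitney p under 0.05 between both groups. In all, 15 members and 2701 rows were under 0.05 in the Mann-Whitney test alone, and limma called 5 members, against 12.9% of rows. The called genes were Cox6a1, Cox8a, Cox7a2l, and Cox16.

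Cox6a1 and Cox8a encode the forms of subunits 6a and 8 that occur in most tissues. Cox6a1 was at 198, 291, and 448 fpkm (lowest, median, and highest) in C rats, 227, 331, and 415 fpkm in W rats, and 301, 379, and 632 fpkm in WRF rats, a difference of 0.43 ± 0.10 (log2 of fpkm + 1 with its SE from limma, n = 18 and 18) between WRF and C (q = 0.0199, exact Mann-Whitney p = 0.000865). Cox8a was at 200.6, 301, and 401 fpkm in C, 246, 326, and 395 fpkm in W, and 295, 382, and 544 fpkm in WRF rats, a difference of 0.38 ± 0.08 (q = 0.0125, exact Mann-Whitney p = 8.1e-05). Both were shifted upward in WRF rats, with an overlap that took in the median of the C rats only in the case of Cox8a. WRF51 and WRF62 were at 368 and 301 fpkm for Cox6a1 and at 295 and 299 fpkm for Cox8a, so these genes were not low where the rest of the complex was.

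Cox7a2l encodes a protein related to subunit 7a that joins complexes III and IV into supercomplexes. It was at 73.9, 98.6, and 120.2 fpkm in C, 84.3, 99.8, and 122 fpkm in W, and 92.7, 120.5, and 157 fpkm in WRF rats, a difference of 0.30 ± 0.06 (q = 0.0110, exact Mann-Whitney p = 2.0e-05). Cox16, an assembly factor that acts on a core subunit of complex IV, was at 14, 17.9, and 25.1 fpkm in C, 16.7, 19.6, and 24.7 fpkm in W, and 19.01, 23.2, and 26.7 fpkm in WRF rats, a difference of 0.28 ± 0.06 (q = 0.0124, exact Mann-Whitney p = 0.000245). The groups overlapped for both genes, and W rats lay nearer to C than to WRF rats by their medians. WRF51 held the highest Cox16 level of all 54 rats.

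No gene of complex III, no gene of ATP synthase, and not Cycs met the rule. The median log2 difference between WRF and C rats was 0.11 over complex III, 0.14 over complex IV, and 0.02 over ATP synthase, against 0.08 over all rows. Of the 48 members, 32 had a value above 0 and 16 below. In complex III, Uqcrh, the hinge subunit between cytochrome c1 and cytochrome c, came nearest, with 597, 763, and 1301 fpkm in C and 335.5, 1070, and 1359 fpkm in WRF rats (0.25 ± 0.13, q = 0.0893); the lowest WRF value was WRF51. The most negative was Uqcrc2, a core protein of complex III, at 309, 393, and 553 fpkm in C and 57.0, 397, and 504 fpkm in WRF rats (-0.32 ± 0.16, q = 0.864). Its 2 medians were almost the same, and its 2 lowest WRF values were WRF51 and WRF62. Cox15, which makes the heme a of complex IV, was the additional member that limma called (-0.21 ± 0.07, limma adjusted p = 0.0448) and was not called by the rank tests (q = 0.141).

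Without WRF51 and WRF62, 9 members were called higher in WRF rats, against 5.72% of rows called higher, and 0 lower. They were the same 4 genes and Uqcrh, Cox4i1, Cox6c, Cox7c, and Atp5j2. The median difference was then 0.34 over complex III, 0.35 over complex IV, and 0.27 over ATP synthase, against 0.03 over all rows, and 45 of 48 members were above 0. In either direction 6.24% of rows were called. Limma called 20 members without the 2 libraries, against 10.9% of rows. The number and the size of the differences in all 3 complexes thus moved by over 1.5 times with 2 of 54 libraries.

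The 5 additional genes were small or regulatory subunits. Uqcrh had a difference of 0.42 ± 0.10 (q = 0.0267) without the 2 libraries, and its remaining 16 WRF rats were at 875 fpkm or more. Cox4i1, the common form of the subunit through which ATP regulates complex IV, was at 1185, 1956, and 3220 fpkm in C rats and at a median of 2689 fpkm in the 16 WRF rats (0.36 ± 0.10, q = 0.0421). Cox6c and Cox7c, small subunits of complex IV, had differences of 0.40 ± 0.10 (q = 0.0356) and 0.44 ± 0.11 (q = 0.0419). For ATP synthase, Atp5j2, subunit f of the membrane part, was at 906, 1291, and 2259 fpkm in C rats and at a median of 1887 fpkm in the 16 WRF rats (0.42 ± 0.11, q = 0.0463). All 5 overlapped with the C rats.

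The genes of a complex did not move by the same amount. Without the 2 libraries the differences in ATP synthase ran from 0.05 ± 0.08 for Atp5a1, the alpha subunit of the F1 head, 0.12 ± 0.08 for Atp5c1, its gamma subunit, and 0.16 ± 0.07 for Atp5b, to 0.45 ± 0.14 for Atp5e, the epsilon subunit, and 0.53 ± 0.17 for Atp5i. In complex III they ran from -0.09 ± 0.10 for Uqcrc2 and 0.08 ± 0.07 for Uqcrfs1, the Rieske iron-sulfur protein, to 0.42 for Uqcrh. The genes of large subunits stood at the low end in both complexes, an order that was noticed after the values were seen and was not tested.

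**Figure D2:**
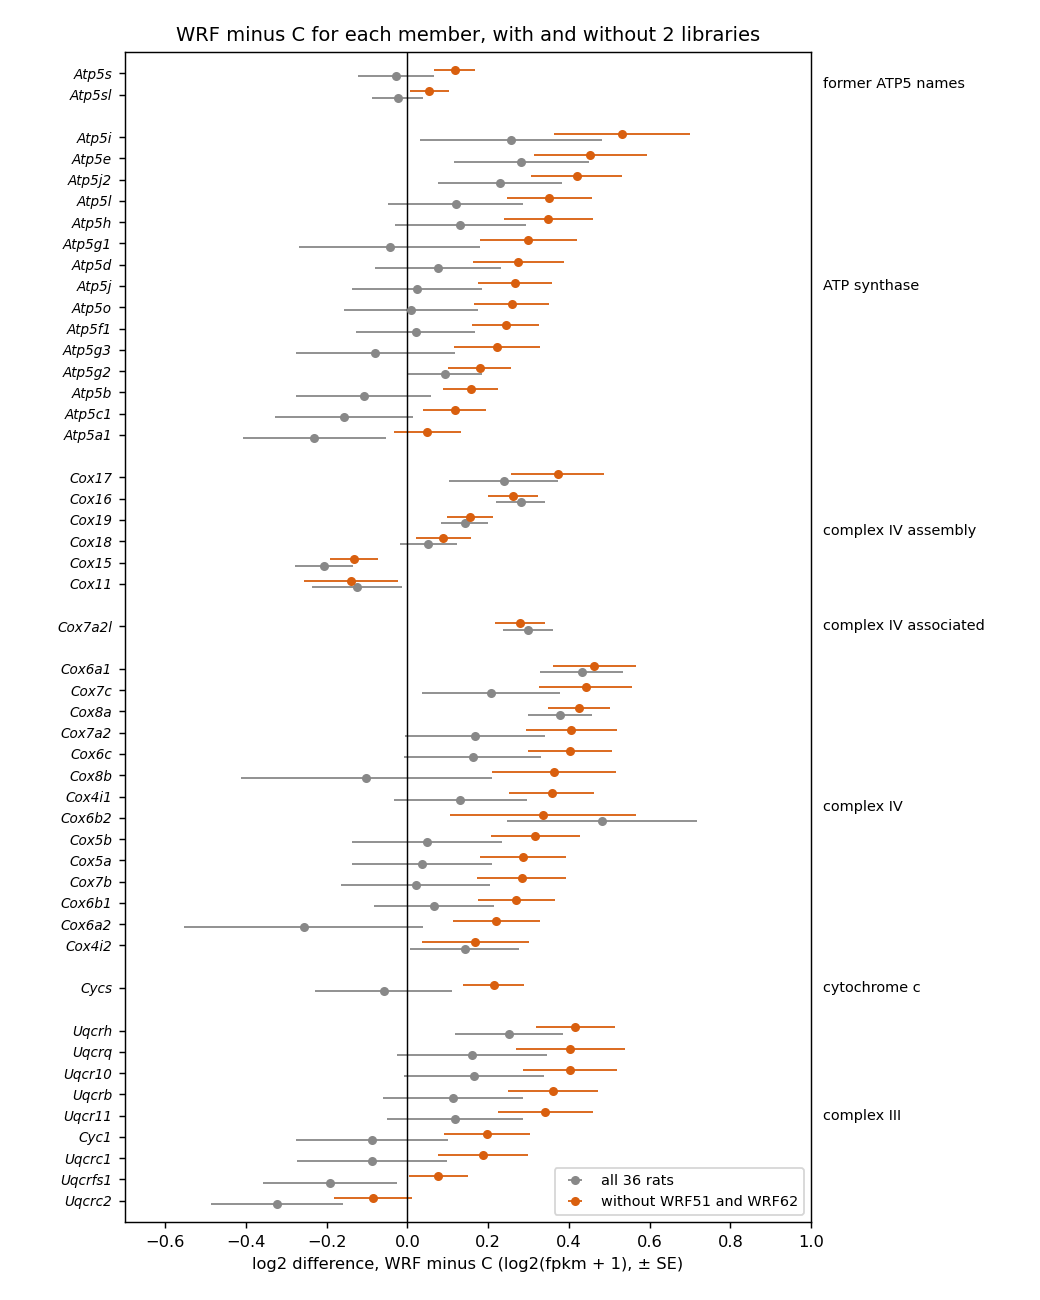
Log2 difference between WRF and C rats (log2 of fpkm + 1, points, with bars of 1 SE from limma) of each of the 48 genes, by complex, with all rats and without WRF51 and WRF62. Leaving out the 2 libraries moves most genes upward, while Cox6a1, Cox8a, Cox7a2l, and Cox16 stay near their place.

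The calls depended on how the libraries were scaled and on which rats were compared. After scaling by the median of ratios, 0 of the 48 genes were called (4.23% of rows, 2.17% higher), with 5 at an unadjusted Mann-Whitney p under 0.05, 2 called by limma, and a smallest q of 0.0921 for Cox8a. The median differences were 0.02, 0.04, and -0.07 for complex III, complex IV, and ATP synthase. With equal sums per rat 0 members and 0 rows were called, with 7 members at an unadjusted p under 0.05 and 1 called by limma. This scaling moved the median of all rows from 0.08 to -0.12, and the medians of the complexes were then -0.12, -0.09, and -0.21, so the direction of all 3 turned. The 4 genes called above kept values above 0 under both scalings, from 0.19 for Cox16 to 0.34 for Cox6a1 with the median of ratios and from 0.06 for Cox16 to 0.20 for Cox6a1 with equal sums. Among rats with Myl7 under 100 fpkm (12 C, 11 W, and 9 WRF rats), 0 members and 0 rows were called, with 13 members at an unadjusted p under 0.05 and 1 called by limma. For both scalings and for these rats, the shares of all rows at an unadjusted p under 0.05 and called by limma are not given. The counts of members at those cutoffs are therefore not read as results about the members. These 9 WRF rats include WRF51, whose Myl7 was at 20.2 fpkm. With the median of ratios and without WRF51 and WRF62, Cox8a alone was called, against 1.94% of rows (0.877% higher), and the medians were 0.32, 0.33, and 0.24. The part of atrial tissue and of library composition in the differences was not tested.

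Rat numbers fell into 3 series of 6 rats per group, each with 1 rat per time, which is read from the numbers and is not given as a batch. In all 3 complexes, the medians of the C series lay further apart than the medians of the 3 groups. In C rats, the median level of complex IV was 9.45 in C17 to C22, 9.17 in C25 to C30, and 9.80 in C33 to C38. In WRF rats it was 9.88 in WRF1 to WRF6, 9.72 in WRF41 to WRF46 with WRF62, and 9.71 in WRF50 to WRF55. Complex III and ATP synthase had the same order of series in C rats, with 9.05, 8.89, and 9.38 for complex III and 10.16, 9.96, and 10.56 for ATP synthase. Without C25 to C30 the median WRF differences were -0.14, -0.08, and -0.12 for complex III, complex IV, and ATP synthase, with 4 members called higher (6.48% of rows, and 6.81% in either direction). Without WRF1 to WRF6 they were -0.13, -0.03, and -0.15, with 8 members called, of which 6 were higher and 2 lower, against 24.9% of rows higher and 30.1% in either direction. Without C33 to C38 they were 0.26, 0.33, and 0.20, with 24 members called, 23 of them higher, against 14.6% of rows higher and 25.8% in either direction. Without C17 to C22 they were 0.14, 0.14, and 0.07, without WRF41 to WRF46 and WRF62 they were 0.15, 0.16, and 0.05, and without WRF50 to WRF55 they were 0.22, 0.23, and 0.13. The sign of the median differences thus turned without C25 to C30 and without WRF1 to WRF6, and stayed without each of the other 4 series. WRF51 and WRF62 stayed in these fits, except where their own series was left out. Leaving out a series and both libraries together was not tried, so their part in the turn of the sign was not tested. Series were read within each group, so none holds rats of more than 1 group. C17 to C22 and C33 to C38 share their numbers with W17 to W22 and W33 to W38. No label says whether rats of the same number belong together, and a fit of W and C in those rats is given at the end.

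The comparison of W with C rats, which asks what work alone leaves behind, gave 0 called members in the Kruskal-Wallis and Mann-Whitney tests, against 0.419% of rows. There were also 0 members at an unadjusted Mann-Whitney p under 0.05, for which the share of rows is not given. Limma called 0 members and 0 rows. The median differences were 0.05, 0.04, and -0.01 for complex III, complex IV, and ATP synthase. Without C33 to C38, 8 members were called (10.5% of rows), and without W17 to W22, 1 member was (1.05% of rows, 0.809% higher). Between WRF and W rats, Cox6a1, Cox8a, Cox7a2l, and Cox16 were again higher in WRF rats and 0 members lower, against 8.26% of rows higher and 8.95% in either direction. The differences were 0.33 ± 0.10 for Cox6a1, 0.25 ± 0.08 for Cox8a, 0.27 ± 0.06 for Cox7a2l, and 0.21 ± 0.06 for Cox16. Both comparisons use the same WRF rats, so the second set of calls does not stand on its own. Without WRF51 and WRF62, 9 members were called higher between WRF and W rats (5.77% of rows, and 6.3% in either direction), and without C33 to C38, 18 were called (20.1% of rows).

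The 3 complexes were then compared with each other within each rat. The mean of complex III minus that of complex IV was -0.60, -0.40, and -0.20 (lowest, median, and highest, log2) in C rats, -0.76, -0.39, and -0.32 in W rats, and -0.93, -0.47, and -0.27 in WRF rats. ATP synthase minus complex IV was 0.63, 0.74, and 0.87 in C, 0.53, 0.71, and 0.82 in W, and 0.34, 0.66, and 0.79 in WRF rats. The groups overlapped in both ratios, and the lowest WRF value of each was WRF51. The lowest complex III to complex IV ratio of each group, with WRF51 and WRF62 left out, was in the rat with the highest Myl7: C27 (16085 fpkm, ratio -0.60), W17 (20489 fpkm, -0.76), and WRF44 (23938 fpkm, -0.88). Each gene has the same weight in these means, also Cox6b2, whose mean was 2.37 fpkm over all rats. Cox6b2 was at 3.76 fpkm in C27, 7.63 fpkm in W17, and 11.7 fpkm in WRF44. Its part in these ratios was not tested. Over more rats the ratio and Myl7 did not go together in every group. The rats with Myl7 at 100 fpkm or more had a median ratio of -0.48 in C, against -0.39 in those below, and the same medians were -0.38 against -0.39 in W rats and -0.48 against -0.43 in the 16 WRF rats. Among C rats, those with Myl7 at 100 fpkm or more had median levels of 8.93, 9.29, and 10.04 for complex III, complex IV, and ATP synthase, and those below had 9.24, 9.62, and 10.39. All 3 complexes thus had lower medians in the 6 C rats with more atrial transcripts than in the other 12, a difference that was not tested. The 6 were C17, C18, C22, C27, C28, and C29, and none came from C33 to C38, the series with the highest levels. The difference by Myl7 was not separated from that by series.

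WRF51 and WRF62 were low in all 3 complexes but not in every gene. They were the 2 lowest of all 54 rats in 38 of the 48 genes: 9 of 9 in complex III, 10 of 14 in complex IV, 15 of 15 in ATP synthase, Cycs, Atp5s, Atp5sl, and 1 of 6 assembly genes. Relative to the median of the C rats, the median log2 difference in WRF51 was -2.19 for complex III, -1.86 for complex IV, and -2.05 for ATP synthase. In WRF62 it was -1.61, -1.42, and -1.40.

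The muscle forms of complex IV lay furthest below the C rats, in both libraries. Cox6a2 was at 2134 to 5448 fpkm in C rats, at 78.3 fpkm in WRF51, and at 529 fpkm in WRF62. Cox8b was at 2829 to 9619 fpkm in C rats, at 157 fpkm in WRF51, and at 1134 fpkm in WRF62. Their counterparts Cox6a1 and Cox8a, given above, lay within the range of the C rats, as did Cox4i2, the lung form of subunit 4, at 31.2 and 11.2 fpkm against 10.97 to 35.7 fpkm. Cox6b2 was above its C range of 0.561 to 5.09 fpkm in both, at 9.92 and 5.44 fpkm. Cox7a2l, at 131 and 136 fpkm, was also above its C range.

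**Figure D3:**
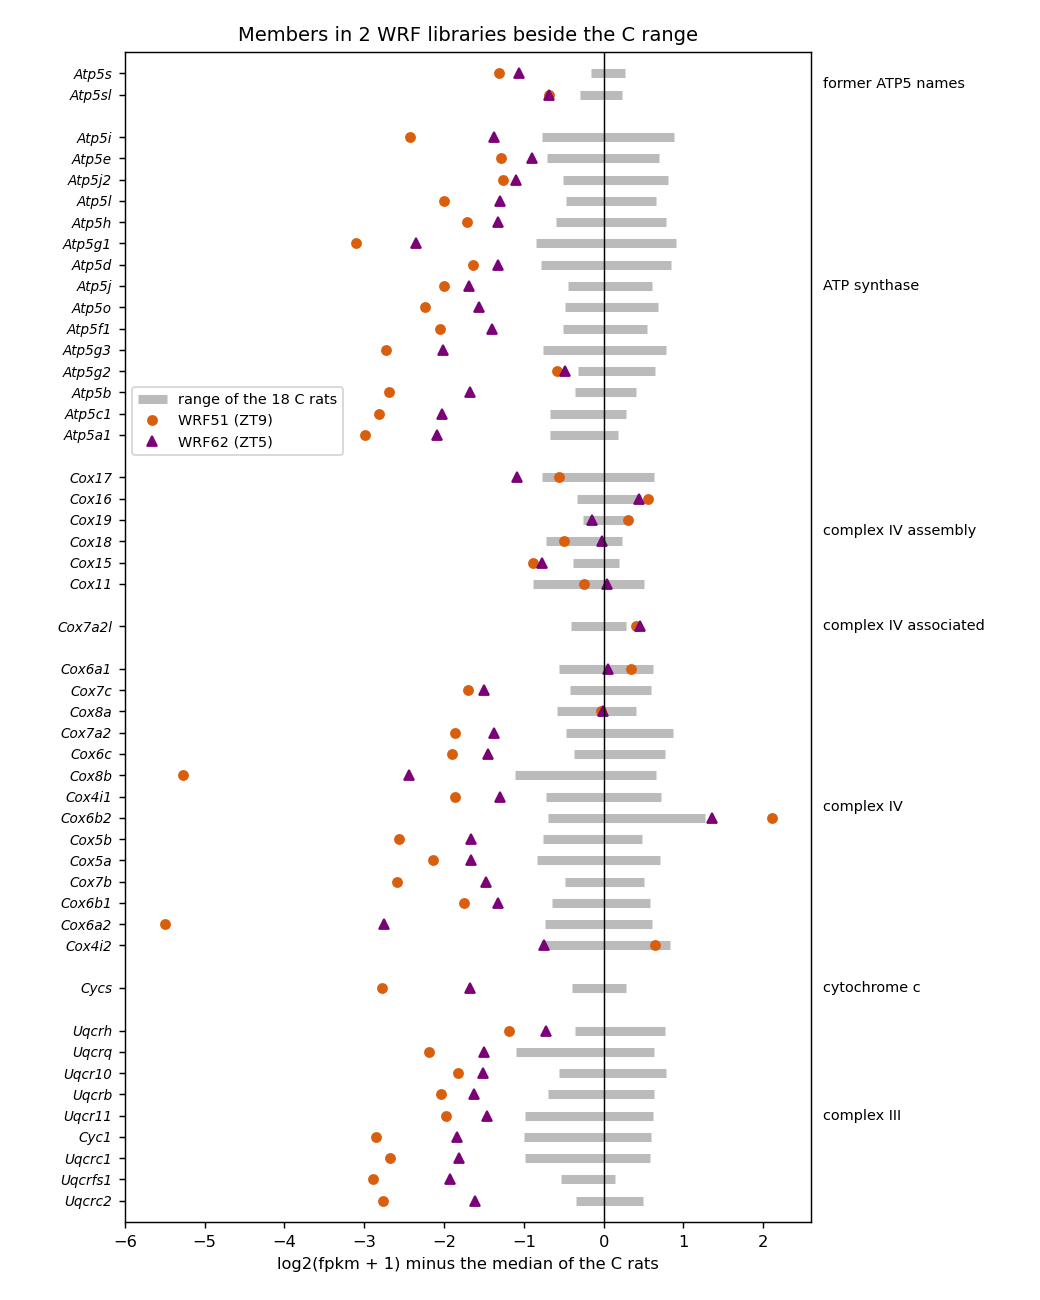
Log2(fpkm + 1) of WRF51 (circles) and WRF62 (triangles) minus the median of the C rats for each member, by complex, with the range of the 18 C rats as a grey bar. Cox6a2 and Cox8b lie lowest, and Cox6b2 highest, in both libraries.

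The pairs of isoforms therefore changed their ratio in these libraries. Cox6a2 was 9.72, 11.6, and 14.1 times the level of Cox6a1 (lowest, median, and highest) in C rats, 0.213 times in WRF51, and 1.76 times in WRF62. Cox8b was 8.73, 21.3, and 26.8 times Cox8a in C rats, 0.533 times in WRF51, and 3.79 times in WRF62. Cox4i1 was 80.9, 103, and 134 times Cox4i2 in C rats, 17.2 times in WRF51, and 70.7 times in WRF62. The same order of the 2 libraries held in each pair, with WRF51 the lower.

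Across the other rats the isoform ratios were close between groups. Cox6a2 over Cox6a1 had medians of 11.6 and 10.7 for C and W rats and 10.6 for the 16 remaining WRF rats, and Cox8b over Cox8a had medians of 21.3, 20.9, and 21.4. With WRF51 and WRF62 the medians of the WRF rats were 10.4 and 19.1. The lowest values of the 16 remaining WRF rats, 6.51 and 10.2, were below and above the lowest C value, respectively. Among the 3 genes for the c subunit of ATP synthase, whose mature proteins are the same, C rats had median shares of 44.2% for Atp5g1, 13.3% for Atp5g2, and 42.7% for Atp5g3. The share of Atp5g2 was 11.2% to 21.2% in C rats and a median of 13.2% in all 18 WRF rats, but 44.3% in WRF51 and 33.9% in WRF62. Reads from stretches that these genes share may be divided between them in alignment, where each read was allowed a single place. Whether this occurred was not checked.

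**Figure D4:**
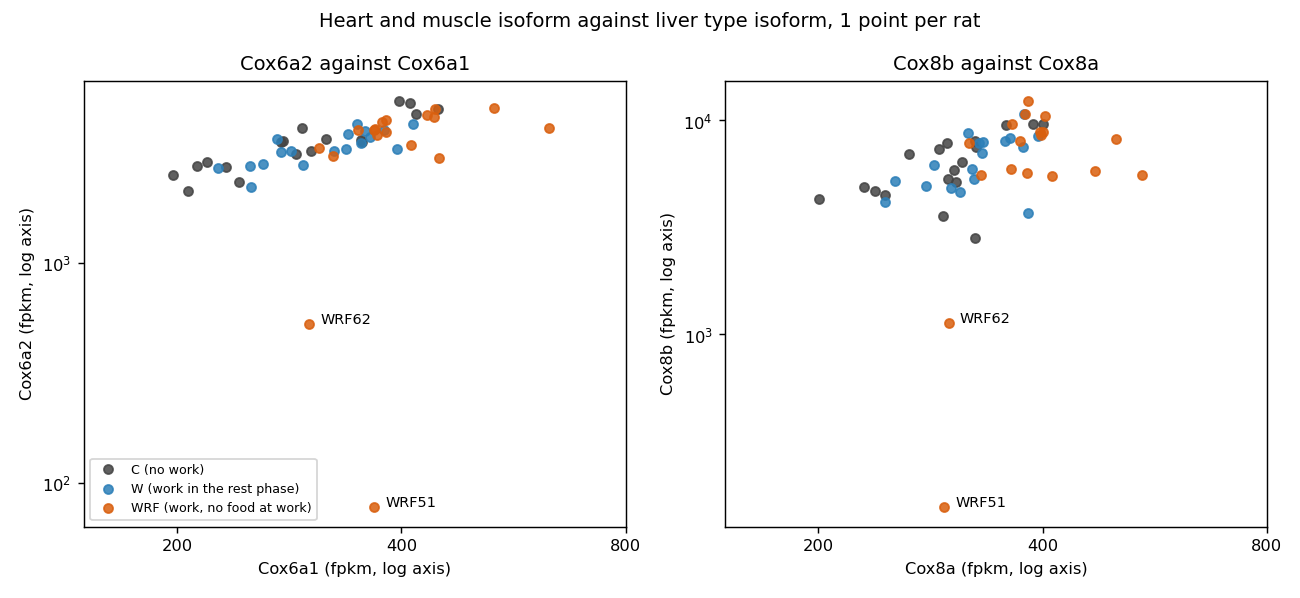
Fpkm of Cox6a2 against Cox6a1 and of Cox8b against Cox8a, both on log axes, where a point stands for 1 rat and its color for the group. WRF51 and WRF62 lie far below all other rats on the vertical axes, at 78.3 and 529 fpkm of Cox6a2, and amid them on the horizontal axes.

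Sequence before the start sites was read from RefSeq promoters of assembly GRCr8, which hold 300 bases per gene, 250 before and 50 after the start; 40 of the 48 genes matched a promoter. Motifs known from genes of oxidative phosphorylation were searched on both strands. The NRF1 motif (GCGCA, any base, and GCGC) was in 8 of 40 (20%), against 4.25% of all 33469 promoters and 10.7% of the 7756 promoters of genes in the fpkm table. It was in 5 of 14 ATP synthase genes and 0 of 11 complex IV genes. The ETS motif CCGGAAG, bound by the GABP factor, was in 14 of 40 (35%), against 8.75% and 18.6%. The YY1 motif was in 1 of 40 (2.5%, against 1.06% and 3.18%), the MEF2 motif (CTA, any 4 bases, and TAG) in 2 of 40 (5%, against 3.84% and 3.06%), and TATAAAA in 1 of 40 (2.5%, against 5.96% and 2.53%). The YY1 motif was searched as AANATGG followed directly by CGGC. No 2 matches overlapped in the stretches found, and a match is only a description of the letters.

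The stretches below were chosen because they belong to the isoforms and called genes above, with the motif in capitals, and with Atp5g2 as the c-subunit gene that kept its level best in WRF51 and WRF62. Atp5g3, which lay further below the C rats in both libraries, also had an NRF1 match. Only matches wholly before the start are printed. Among the other called genes, Cox7a2l, Cox7c, and Atp5j2 had no match, Cox4i1 had 2 ETS matches not printed, and Cox6a1 and Cox6c matched no promoter. The muscle forms are shown first, followed by Cox8a and Cox16, called higher in WRF rats with all rats. Uqcrh, called only without WRF51 and WRF62, comes next, and Atp5g2, which was not called in either case, is last. All stretches are 30 bases, lie on the minus strand of GRCr8, and are written 5′ to 3′ along the gene.
Cox6a2 (chr1:192219747-192219776, MEF2): gagaaagtccCTAAAAATAGccatccatgt
Cox8b (chr1:205408294-205408323, TATA): tccgccccaacTATAAAAagccctagctac
Cox8a (chr1:213833662-213833691, ETS): tttccgaaataCTTCCGGgctgaggcgtct
Cox8a (chr1:213833624-213833653, ETS): cagcgccggaaCTTCCGGctattgcggcca
Cox16 (chr6:106912501-106912530, ETS): aacggcctcgaCTTCCGGgggagggaggaa
Uqcrh (chr5:134790947-134790976, ETS): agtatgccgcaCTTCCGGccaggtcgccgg
Atp5g2 (chr7:135678255-135678284, NRF1): ggctctagtcGCGCATGCGCagagccttct
The MEF2 match of Cox6a2 lies 50 to 41 bases and the TATA match of Cox8b 39 to 33 bases before the start. The ETS matches of Cox8a lie 57 to 51 and 19 to 13 bases before it, so the ubiquitous form of subunit 8 held 2 ETS matches and its muscle form none in this window.

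By time, as the titles give it, the medians of the WRF and C differences had the same sign in all 3 complexes at every time. The highest were those of ZT1, with 0.40, 0.48, and 0.41 for complex III, complex IV, and ATP synthase, and of ZT21, with 0.43, 0.48, and 0.44. Those of ZT17 were 0.27, 0.30, and 0.20, and those of ZT13 were 0.04, 0.13, and 0.06. Only ZT5 (-0.21, -0.19, and -0.23) and ZT9 (-0.58, -0.57, and -0.72) were below 0, and these are the times of WRF62 and WRF51. Without the 2 libraries the medians were 0.44, 0.43, and 0.40 at ZT5 and 0.19, 0.14, and 0.15 at ZT9. With the times of the other labels and all rats, the medians were below 0 at ZT1 (-0.24, -0.13, and -0.27) and ZT5 (-0.29, -0.23, and -0.36), and 0.14, 0.13, and 0.08 at ZT9. With those times 1 member was called at ZT1, against 2.38% of rows.

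No member was called at any time by limma with 1 mean per group and time (0 of 48 and 0.0% of rows at each of the 6 times). At an unadjusted p under 0.05 ZT1 had 4 members (7.77% of rows), ZT5 had 2 (17.5%), ZT9 had 2 (8.28%), ZT13 had 2 (4.58%), ZT17 had 3 (2.69%), and ZT21 had 1 (2.23%). Cox8a at ZT1 had the smallest p. The 3 C rats were at 264, 201, and 290 fpkm and the 3 WRF rats at 379, 381, and 503 fpkm, which did not overlap (0.74 ± 0.19, limma adjusted p = 0.637). At ZT9, Cox6a2 was at 4779, 2134, and 5022 fpkm in C rats and at 3326, 4088, and 78.3 fpkm in WRF rats, a difference of -1.86 ± 0.74 (limma adjusted p = 0.528). WRF51 is the low value, and without it and WRF62 the difference was -0.01.

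**Figure D5:**
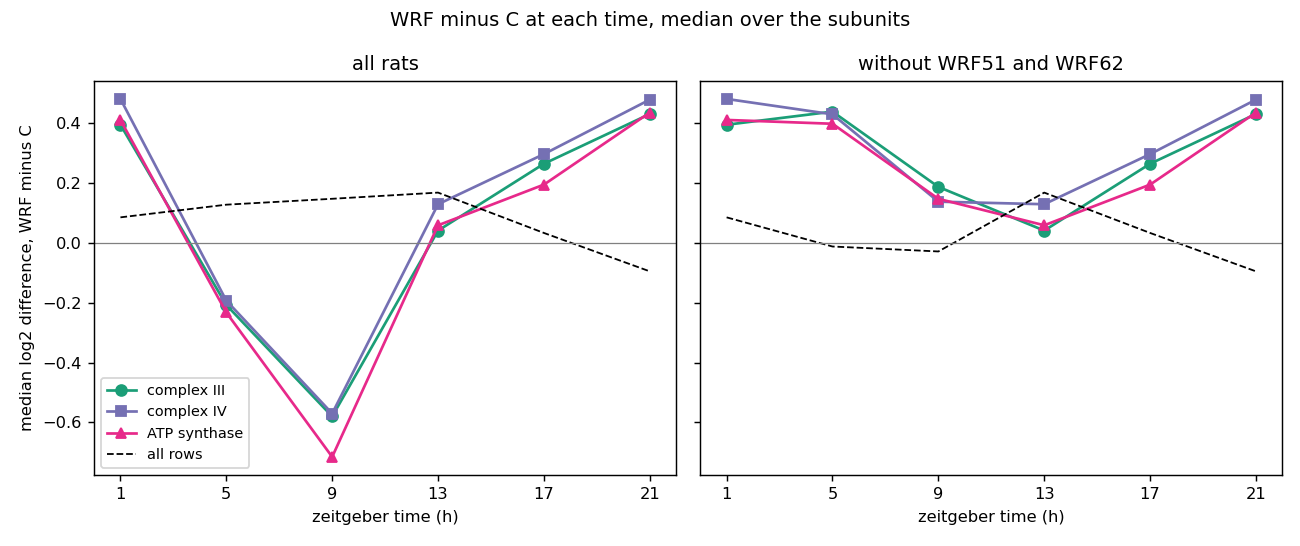
Median over the genes of each complex of the log2 difference between WRF and C rats at each ZT (h), with all rats (left) and without WRF51 and WRF62 (right); the dashed line is the median over all rows. The negative values at ZT5 and ZT9 turn positive without the 2 libraries.

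Within WRF rats, ZT21 was compared with ZT9, a contrast chosen with results of these data known. The medians were 1.11, 1.08, and 1.07 for complex III, complex IV, and ATP synthase, against -0.34 over all rows. Of the 48 genes, 34 were at an unadjusted limma p under 0.05 (30.9% of rows) and 0 were called after adjustment (0.0195% of rows). Cox6a2 was at 4393, 5058, and 4712 fpkm at ZT21, above 3326, 4088, and 78.3 fpkm at ZT9 in each case (2.20 ± 0.74, limma adjusted p = 0.123). Without WRF51 the medians were 0.32, 0.34, and 0.39, and 0 members were at an unadjusted p under 0.05. The share of all rows without WRF51 alone is not given. The differences were then 0.35 ± 0.49 for Cox6a2, 0.47 ± 0.48 for Atp5g1, and 0.30 ± 0.39 for Cyc1, the cytochrome c1 gene. With the times of the other labels the medians were 0.16, 0.24, and 0.21, and 0 members were at an unadjusted p under 0.05 (0.497% of rows). The contrast between the 2 times therefore rested on 1 library and on its labelled time.

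Harmonic regression with a 24 h period found 0 members with q under 0.05 in any group, against 0.848%, 0.0%, and 0.039% of rows for C, W, and WRF rats, and JTK found 0 as well. At an unadjusted p under 0.05 there were 1 member in C rats (Atp5s, p = 0.0293), 1 in W rats (Atp5a1, p = 0.0330, peak at ZT13.0), and 8 in WRF rats, against 5.91%, 3.05%, and 6.35% of rows. The 8 were Uqcrh, Cox5a, Cox6b1, Cox18, Atp5d, Atp5g1, Atp5g2, and Atp5h, with p from 0.0212 to 0.0397 and a smallest q of 0.568. The 3 complexes had mean peaks at ZT20.4, ZT20.2, and ZT20.5 in WRF rats, and a median relative amplitude of 0.23, 0.23, and 0.22. Without WRF51 and WRF62 the amplitudes were 0.10, 0.12, and 0.10 and 4 members were at an unadjusted p under 0.05 (8.08% of rows), and without WRF51 alone there were 0 (4.88% of rows). With the times of the other labels there were 0 as well (1.79% of rows). The amplitudes of C rats were 0.07, 0.08, and 0.08 with mean peaks at ZT13.8, ZT14.2, and ZT14.3, and those of W rats 0.04, 0.04, and 0.05. An F test of different rhythms in WRF and C rats gave 0 members after adjustment and 0 at an unadjusted p under 0.05 (5.76% of rows), with a smallest adjusted p of 0.618.

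Other genes of the pathway were taken from lists chosen with earlier results known. Between WRF and C rats, 4 of 13 measured genes listed for complex IV assembly outside the rule were called higher (8.13% of rows were). They were led by Pet100 (0.43 ± 0.10) and Cmc1 (0.33 ± 0.07), with Coa4 and Tmem177. The list also holds Tmem186, which was not called, and the role of each gene in complex IV was not checked. Of 6 complex III assembly genes Uqcc3 was called higher (0.39 ± 0.09, q = 0.0205), and of 7 genes for the assembly of ATP synthase or for proteins associated with it Tmem242 was (0.25 ± 0.10). No gene of these 3 lists was called lower. Without WRF51 and WRF62 the counts called higher were 5, 1, and 2 (5.72% of rows). After scaling by the median of ratios they were 0 in all 3 lists, with and without the 2 libraries, with 3, 1, and 1 genes at an unadjusted Mann-Whitney p under 0.05 and 1, 0, and 0 called by limma in all rats, and 5, 2, and 3 genes and 2, 1, and 2 called by limma without the 2 libraries. Rank tests called 0 of 4 complex II genes, 0 of 35 genes with a complex I symbol, and 0 of 13 mitochondrial gene regulators. At an unadjusted Mann-Whitney p under 0.05 there were 0, 14, and 3, and limma called 0, 0, and 1 (12.9% of rows). How many of all rows were under 0.05 in the Mann-Whitney test is given above with the WRF and C comparison. For the scaled values the shares of rows at these cutoffs are not given. The complex I list went by symbol (Nduf) alone and holds Ndufa4 and Ndufa4l2, so not all 35 need be complex I subunits. Its median difference was 0.06. Among the regulators, Tfam, which packages and transcribes mitochondrial DNA, had the smallest p (0.11 ± 0.05, q = 0.059). Ppargc1a, a coactivator of mitochondrial genes, had a difference of -0.60 ± 0.22 (q = 0.164). It was at 0.299 fpkm in WRF51 and 0.656 fpkm in WRF62, below its lowest C value of 1.85 fpkm. Without WRF51 and WRF62, 1 of 13 regulators was called higher (5.72% of rows) and 0 of 4 complex II genes. The median of complex II moved from -0.09 to 0.12 without the 2 libraries. Then 3 complex II genes were at an unadjusted Mann-Whitney p under 0.05. The complex I list had 7 of 35 called higher (5.72% of rows) and a median of 0.31 without WRF51 and WRF62. With the median of ratios in addition it had 0 called, with 16 at an unadjusted Mann-Whitney p under 0.05 and 1 called by limma, and a median of 0.28. The 9 cardiomyocyte markers had a median of -0.36 with all rats and 0.14 without the 2 libraries, with 0 and 1 called. The medians were 1.48 over 4 atrial markers, 0.65 over 6 T cell markers, 0.83 over 6 liver markers, and 0.58 for Ager, with 0 called in each and 0, 5, 4, and 0 at an unadjusted p under 0.05. Without WRF51 and WRF62 these medians were 1.51, 0.26, 0.78, and 0.13. Their part in the levels of the complexes was not tested.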

How the data were processed

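RNA from 54 rat hearts was sequenced as directional polyA libraries. The authors aligned the reads to rn6 with TopHat2, estimated fpkm with Cufflinks, and deposited FPKM values for 10257 rows above 1 fpkm in at least 18 rats, which all rows met. Versions are not given in the sources used here. The table holds no counts, and the depth of each library was not used here.

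Group and time came from the titles. Other labels of 12 WRF rats give another time, which was tried. Differences were tested with the Kruskal-Wallis test (Benjamini-Hochberg over all rows) and exact 2-sided Mann-Whitney tests (scipy 1.17.1). Sizes came from limma 3.58.1 (R 4.3.3, variance trend) on log2(fpkm + 1), a scale that understates changes of low genes. Rhythms were tested by harmonic regression on fpkm (24 h) and JTK, re-implemented in Python 3.11.15. Scripts were tested on simulated data. Alternatives were other scalings, pseudocount (0.1), a mean of at least 5 fpkm, rats with Myl7 under 100 fpkm, and leaving out libraries or series. Scaling by the median of ratios together with leaving out WRF51 and WRF62 was added after the data were seen. The members and lists were chosen with earlier results of these data known. Genes were named by a rule: the 2 highest and 1 lowest of each complex, up to 4 per complex of smallest p, isoform pairs, and every called gene where fewer than 6 were called.
Rats were separate animals. The 12 numbers shared by C and W rats were not taken to pair them.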

Additional observations from a re-analysis of the deposited data

How the results depend on the processing

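The counts of called members moved with most choices, and in none of these did a call reverse its direction. Between WRF and C rats, where 4 members were called, 0 were called after scaling by the median of ratios, after scaling to equal sums, among rats with Myl7 under 100 fpkm, without the series WRF41 to WRF46 with WRF62, and without WRF50 to WRF55. There were 8 without WRF1 to WRF6 (30.1% of rows), 9 without WRF51 and WRF62 (6.24%), and 24 without C33 to C38 (25.8%). With the median of ratios and without WRF51 and WRF62 there was 1 (1.94%). The share of rows was 8.85% with all rats, 4.23% with the median of ratios, and 0 with equal sums and with Myl7 under 100 fpkm. For the settings without WRF41 to WRF46 with WRF62 and without WRF50 to WRF55 it is not given here. Between WRF and W rats, also with 4, the same settings gave 0, 0, 0, 0, 0, 8, 9, 18, and 1. Of all rows, 8.95% were called with all rats, and 0 with equal sums and with Myl7 under 100 fpkm. Without WRF51 and WRF62 6.3% were called, and without C33 to C38 20.1%. The shares of the other settings are not given here. Between W and C rats, with 0, there were 8 without C33 to C38 (10.5% of rows) and 1 without W17 to W22 (1.05%). The times of the other labels gave 1 member between WRF and C at ZT1 (2.38% of rows), against 0. No member was rhythmic after adjustment. Without it, 1, 1, and 8 members of C, W, and WRF rats had a p under 0.05 (5.91%, 3.05%, and 6.35% of rows). The causes were not tested, and neither was the part of the smaller number of rats where rats were left out. C and W rats shared 12 numbers, which did not pair the animals by correlation (-0.08 to 0.57, 6 above 0.1, 1 best with its own number): with a replicate block in these 24 rats limma called 0 members, with 34 at an unadjusted p under 0.05 (16.6% of rows) against 25 (8.65%) without the block, all lower in W rats, with a median of -0.23. These 24 rats leave out C25 to C30 and W1 to W11, and in all 36 rats 0 members were at an unadjusted p under 0.05 in the Mann-Whitney test. Depth was not used here, so no limit of detection is stated.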
